A study of Mus musculus with 1016 samples.

Results

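Mouse chromosome 3, less its first 13 Mb and its last 5 Mb, was followed through preimplantation development with single-cell Repli-seq, in which the copy number of each 50 kb bin of a single cell's genome is read as replicated or not yet replicated. It made up 2841 of the 49264 bins of chromosomes 1 to 19, or 142.05 Mb (GRCm38, chr3:13000001-155050000), and 2776 of these bins had a value in every group. The chromosome was picked out because its mean was known to lie later in morulae than in 2-cell embryos, so that difference is given here as a description only. Its label as gene-poor was checked against the annotation: it held 962 protein-coding gene starts, or 6.77 per Mb, the 4th lowest of the 19 autosomes, with the 2nd lowest GC content (40.6%) and the highest share of repeats (34.8%).

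The 7 stages were zygotes (20 to 26 h after the hormone injection that triggers ovulation), 2-cell embryos (32 to 40 h), 4-cell embryos (50 to 56 h), 8-cell embryos (66 to 72 h), 16-cell embryos (77 to 80 h), morulae (90 to 96 h) and cells of the inner cell mass (ICM, 96 to 104 h), from F1 (C57BL/6J × CBA) females mated with DBA/2J males. The other groups were 2-cell embryos injected as zygotes with mRNA of the histone demethylase KDM5B (34 to 40 h), 2-cell embryos treated with the transcription elongation inhibitor DRB (34 to 40 h) or with the RNA polymerase inhibitor alpha-amanitin (34 to 39 h), parthenotes (oocytes of the same F1 females activated without sperm) and zygotes from in vitro fertilization (IVF), both collected between 5.5 and 12 h after activation or insemination, and maternal and paternal pronuclei taken from zygotes (21 to 25 h). Every sample was 1 cell or 1 pronucleus. The labels tie no cell to an animal, litter or culture, and embryos of several mice were pooled for a stage, so each group counted as 1 sample and no difference between groups was tested.

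Eukaryotic chromosomes are copied in a set order during S phase, domain by domain. In differentiated mammalian cells, gene-dense and GC-rich domains are copied early, and gene-poor, AT-rich domains that often lie at the nuclear lamina are copied late. The order is called replication timing. A domain replicated in most cells of a mixed S-phase population is early, and one replicated in few of them is late, so the share of cells with a bin replicated stands for its time.

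The 2 ends of that range on chromosome 3 are shown by the middle 240 bases of its earliest and its latest bin, chosen by their mean over the 7 stages. Both stretches are from the forward strand of the GRCm38 reference genome, with each CG dinucleotide in capitals.
earliest bin, chr3:95474881-95475120: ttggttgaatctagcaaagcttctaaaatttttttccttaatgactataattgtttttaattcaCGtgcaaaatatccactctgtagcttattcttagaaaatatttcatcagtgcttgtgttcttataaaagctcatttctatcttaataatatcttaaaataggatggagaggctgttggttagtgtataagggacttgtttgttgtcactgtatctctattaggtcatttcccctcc
latest bin, chr3:91124881-91125120: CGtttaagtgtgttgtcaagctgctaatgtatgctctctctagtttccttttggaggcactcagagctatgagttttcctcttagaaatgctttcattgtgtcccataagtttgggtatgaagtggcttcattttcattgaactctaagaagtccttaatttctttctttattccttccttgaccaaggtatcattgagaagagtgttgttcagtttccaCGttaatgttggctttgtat
The earliest bin, chr3:95450001-95500000, overlaps Arnt, the partner of the dioxin receptor and of hypoxia-inducible factors, and Ctsk, a protease of bone-resorbing cells. The latest bin, chr3:91100001-91150000, lies beside the gene cluster of the skin's cornified envelope and holds no protein-coding gene. Base composition hardly separated them: GC content was 40.9% in the earliest bin and 39.4% in the latest, with 392 and 372 CG dinucleotides. Repeats made up 30.98% of the earliest bin and 71.6% of the latest; the part of repeats in the calls was not tested. The earliest bin was replicated in 53 of 66 zygotes, 45 of 61 2-cell embryo cells, 49 of 55 4-cell, 40 of 56 8-cell, 37 of 40 16-cell, 43 of 47 morula and 55 of 70 ICM cells. The latest was replicated in 8 of 66 zygotes, 5 of 61 2-cell, 2 of 55 4-cell, 1 of 56 8-cell, 1 of 40 16-cell, 0 of 47 morula and 2 of 70 ICM cells. The 0 of 47 allowed a share of up to 7.55% (exact 95% interval, counting error only).

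Of 1016 labelled samples, 733 had a column in the tables and 714 had a replication score, the percentage of all called bins that were replicated, of 10 to 90; chromosome 3 was called in 711 of these. The number used was 66 zygotes, 63 2-cell, 55 4-cell, 56 8-cell, 40 16-cell, 47 morula, 70 ICM, 56 KDM5B, 67 DRB, 42 alpha-amanitin, 57 parthenote and 57 IVF cells, and 21 maternal and 17 paternal pronuclei. The tables hold binary states with no read counts, so the sequencing depth behind a call is unknown. In 35 of the 711 cells (4.92%, exact 95% interval 3.45 to 6.78) every called bin of chromosome 3 had the same state, replicated in 14 and not replicated in 21, and over the 19 autosomes this count ran between 31 and 42. Cells of this kind weigh on the level of the whole chromosome. Its relative share without them is given for each group that held any, with its rank for the stages. Some collection times stood apart over windows of 2 Mb. The 8-cell cells of 72 h (11 cells) correlated with the other 8-cell cells at r = 0.246, where the other 8-cell times with a value reached 0.704 to 0.892. The 16-cell cells of 77 h (9 cells) correlated with those of 80 h (31 cells) at r = 0.131. With alpha-amanitin and in parthenotes the times with a value agreed poorly with the rest of their group, at r of 0.257 to 0.512 and 0.278 to 0.508. In IVF zygotes the times differed, with r of 0.306 to 0.848, lowest at 5.5 h (5 cells). The range was 0.446 to 0.697 in untreated 2-cell embryos and 0.615 to 0.902 with DRB.

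Chromosome 3 as a whole lay near the middle of the autosomes in zygotes and 2-cell embryos and among the latest in 4-cell embryos, 8-cell embryos and morulae. Its relative share, the share of cells with a bin replicated minus the share over all bins of chromosomes 1 to 19 in the same cells, was 0.0118 in zygotes and 0.0206 in 2-cell embryos, where a value above 0 is earlier than the genome. It was -0.0343 in 4-cell embryos, -0.0480 in 8-cell embryos, -0.0219 in 16-cell embryos, -0.0582 in morulae and -0.0180 in the ICM. Counted from the latest of the 19 autosomes, it ranked 10 in zygotes and in 2-cell embryos, 2 in 4-cell embryos, 2 in 8-cell embryos, 9 in 16-cell embryos, 2 in morulae and 7 in the ICM. Before this subtraction, chromosome 3 had shares of 0.555, 0.514, 0.374, 0.443, 0.530, 0.522 and 0.533 in that order of stages. Without cells that held the chromosome in a single state, the relative share was -0.00197 in zygotes, 0.0223 for 2-cell, -0.0379 for 4-cell, -0.0281 for 8-cell and -0.0328 for 16-cell embryos and -0.0104 for the ICM. Its rank from the latest was then 9, 12, 2, 4, 6 and 9 in the same order. No morula cell was of this kind. The 16-cell value was 0.0859 in the 9 cells of 77 h and -0.0537 in the 31 cells of 80 h.

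**Figure D1:**
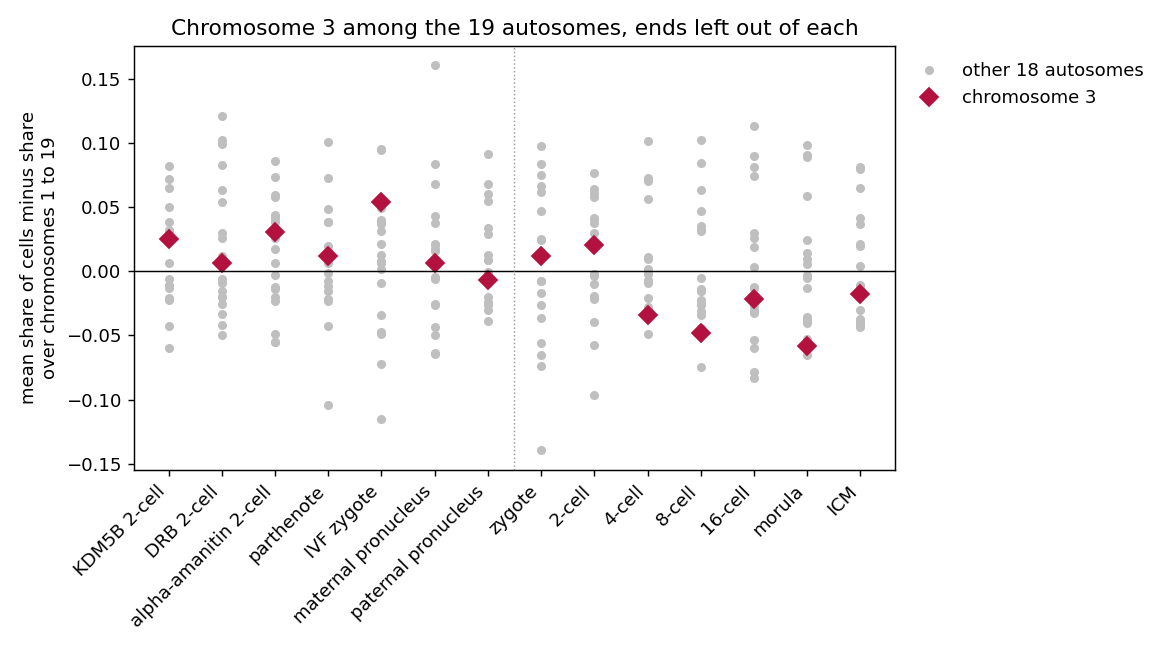
Mean relative share (share of cells replicated minus that over chromosomes 1 to 19) of each autosome with its ends left out, by group; the red diamond is chromosome 3 and each grey point is another autosome. Chromosome 3 was 2nd from the bottom in 4-cell embryos, 8-cell embryos and morulae and 3rd from the top in IVF zygotes. In 8-cell embryos its rank from the bottom was 4 without cells that held the chromosome in a single state.

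Outside the normal series the chromosome was earliest in IVF zygotes. Its relative share there was 0.0541, rank 17 from the latest, against 0.0118 in zygotes, and the IVF value was 0.0487 and the zygote value -0.00197 without single-state cells. In parthenotes the relative share was 0.0116, and 0.0245 without single-state cells. Maternal pronuclei had 0.00656, or 0.0297 without 1 such pronucleus, and paternal pronuclei -0.00688. KDM5B 2-cell embryos had 0.0255, DRB 2-cell embryos 0.00662 and alpha-amanitin 2-cell embryos 0.0305, against 0.0206 in untreated 2-cell embryos. Without single-state cells the treated groups had 0.0174, 0.0172 and 0.0409 in that order, against 0.0223. The untreated 2-cell value leaned on 1 collection time, as its 21 cells of 35 h had -0.0358 and every other time was above 0. Leaving out 1 time in turn moved it between 0.0108 and 0.0512. The KDM5B group had no cells of 35 h. The order of treated and untreated groups thus depended on the times used. The signs of the zygote, 16-cell, maternal, paternal and DRB values depended on the processing, and the paternal value was 0.00431 in pronuclei with scores of 30 to 70.

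Single cells of a group spread widely about these means. Chromosome 3 was less replicated than the rest of the same cell in 35 of 66 zygotes (53.03%, exact 95% interval 40.3 to 65.4) and 26 of 61 2-cell embryo cells (42.6%, 30.04 to 55.9). The count was 39 of 55 4-cell cells (70.9%, 57.1 to 82.4), 41 of 56 8-cell cells (73.2%, 59.7 to 84.2), 27 of 40 16-cell cells (67.5%, 50.9 to 81.4), 39 of 47 morula cells (82.98%, 69.2 to 92.4) and 43 of 70 ICM cells (61.4%, 49.03 to 72.8). Between cells of 1 group, the deviation of chromosome 3 from the cell's own score had its smallest spread in morulae (SD 0.0526, lowest -0.133, median -0.0758, highest 0.0954), and no morula cell held the chromosome in a single state. In parthenotes the SD was 0.202, where 6 of 57 cells held it in a single state, and 0.0936 without them. In 14 of 56 IVF zygotes (25.0%, 14.4 to 38.4) the chromosome was less replicated than the rest of the cell, against 35 of 66 zygotes.

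**Figure D2:**
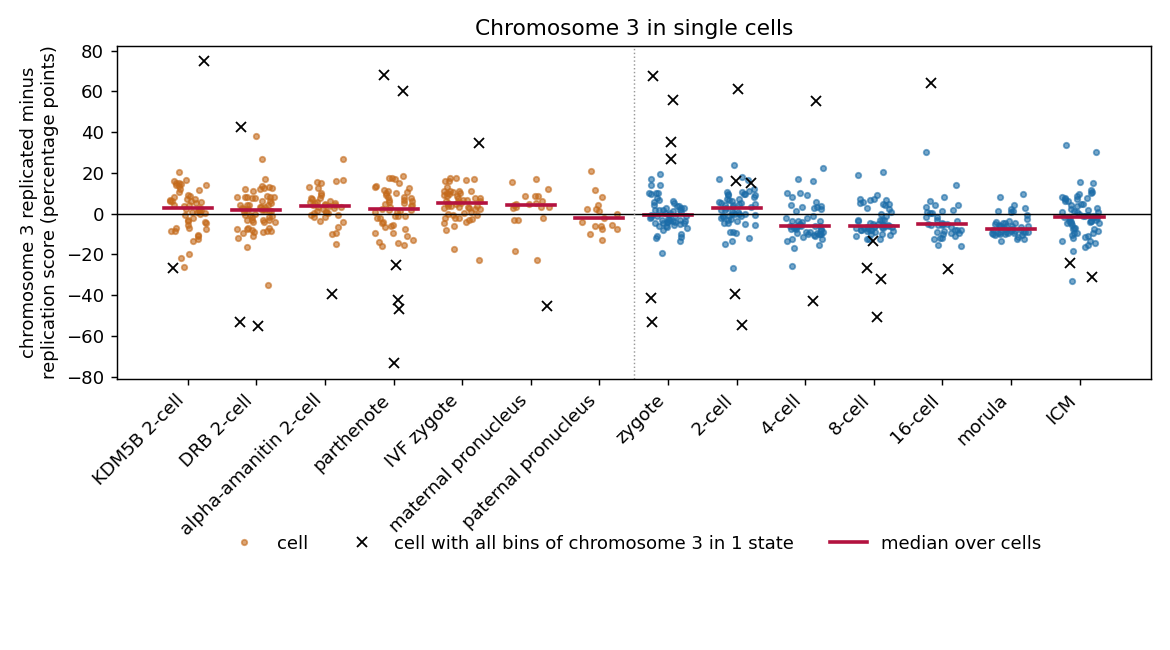
Percentage of called chromosome 3 bins replicated minus the cell's replication score, in percentage points; each point is 1 cell, a cross is a cell with every bin of chromosome 3 in 1 state, and a bar is the median. Most morula cells, 39 of 47, lay below 0, and most IVF zygotes, 42 of 56, lay at or above it.

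The lag in morulae was not limited to 1 part of S phase. In morula cells with scores of 10 to 35, 35 to 65 and 65 to 90, the chromosome lay below the cell's score in 6 of 7, 14 of 17 and 19 of 23 cells. In 4-cell embryos the counts were 22 of 22, 17 of 27 and 0 of 6 cells in the same bands, so that the lag was seen in less replicated cells. In 2-cell embryos they were 4 of 12, 20 of 41 and 2 of 8. In ICM cells they were 7 of 10, 18 of 35 and 18 of 25, and ICM cells of 96 to 100 h and of later hours, up to 104 h, had relative shares of -0.0118 and -0.0234.

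Within the chromosome, contrast between regions was lowest of the 7 stages in 2-cell embryos and highest in morulae. Over 71 windows of 2 Mb, the SD of the share was 0.122 in zygotes, 0.107 at the 2-cell stage, 0.131 in 4-cell embryos, 0.148 in 8-cell embryos, 0.202 in 16-cell embryos, 0.236 in morulae and 0.142 in the ICM. The 1038 windows of all chromosomes gave close values, 0.134, 0.114, 0.157, 0.149, 0.202, 0.234 and 0.138. Among single bins, 21.01% were replicated in at most 20% of morula cells and 22.4% in at least 80% of them, where 2-cell embryos had 1.902% and 0.0718% of bins in these classes. The SD of the 16-cell windows was 0.0885 in the cells of 77 h alone and 0.257 in those of 80 h alone. KDM5B, DRB and alpha-amanitin 2-cell embryos had SDs of 0.125, 0.1497 and 0.0835, against 0.107 in untreated 2-cell embryos, and parthenotes and IVF zygotes had 0.0790 and 0.111, against 0.122 in zygotes.

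**Figure D3:**
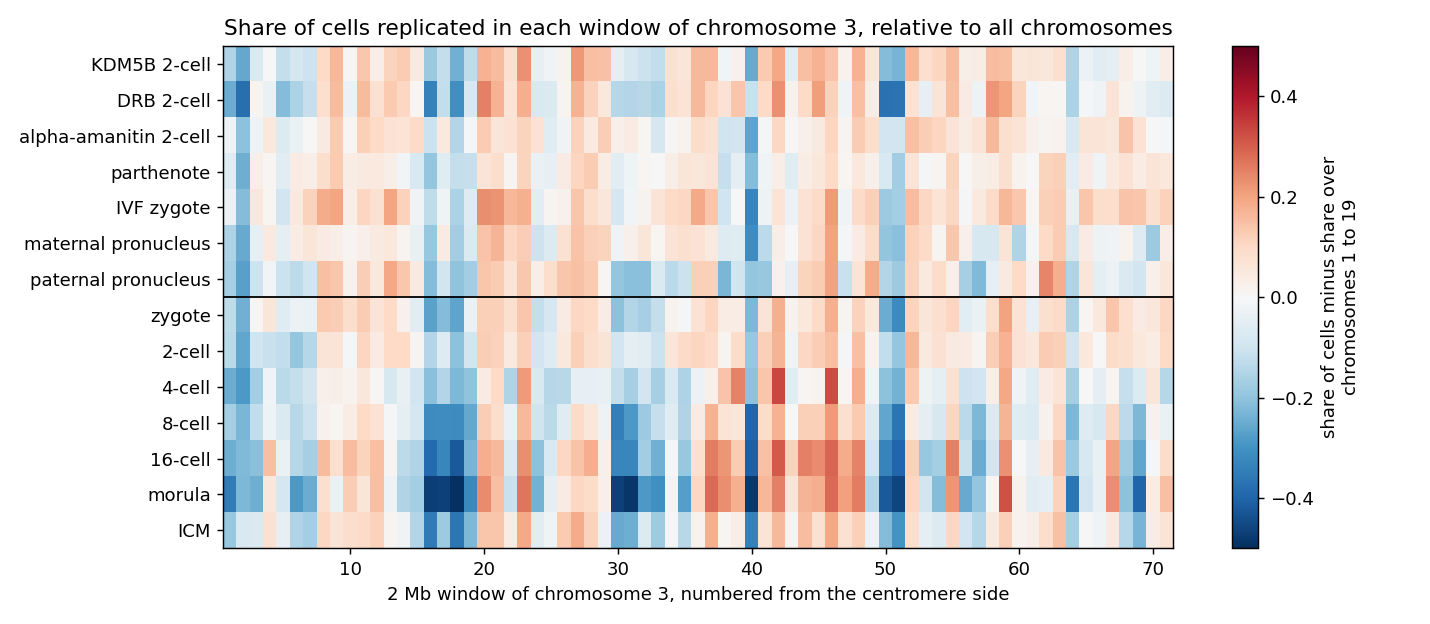
Relative share of each of the 71 windows of 2 Mb of chromosome 3 (x axis, numbered from the centromere side) in the 14 groups (rows); red is earlier and blue later than chromosomes 1 to 19 in the same cells. Late stretches around windows 16 to 18, 30 to 31, 40 and 50 to 51 stand out, with -0.520 in window 18 of morulae.

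The window with the lowest mean over the 7 stages, chr3:47000001-49000000, holds no protein-coding gene start and 36.7% GC. It was replicated in 15 of 66 zygotes, 15 of 61 2-cell, 9 of 55 4-cell, 8 of 56 8-cell, 5 of 40 16-cell, 2 of 47 morula and 12 of 70 ICM cells, a cell counting as replicated where at least 50% of its called bins were. It was replicated in 16 of 56 KDM5B, 13 of 67 DRB and 11 of 42 alpha-amanitin 2-cell cells, 25 of 57 parthenotes, 26 of 56 IVF zygotes, 9 of 21 maternal and 6 of 17 paternal pronuclei. The morula count was thus the lowest share of the 14 groups and the IVF count the highest.

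Next in order came chr3:113000001-115000000, with Col11a1, a fibrillar collagen, Olfm3, a secreted glycoprotein of neurons, and Amy1, salivary amylase. The window was replicated in 13 of 66 zygotes, 17 of 61 2-cell, 9 of 55 4-cell, 5 of 56 8-cell, 3 of 40 16-cell, 6 of 47 morula and 16 of 70 ICM cells. The window after that, chr3:91000001-93000000, was no desert and holds 48 gene starts, most of them of the small proline-rich proteins and other parts of the cornified envelope, at 38.9% GC. Replication had reached it in 21 of 66 zygotes, 21 of 61 2-cell, 14 of 55 4-cell, 3 of 56 8-cell, 7 of 40 16-cell, 3 of 47 morula and 15 of 70 ICM cells. Among the other groups this window reached 39 of 67 DRB 2-cell cells, against 6 of 42 with alpha-amanitin, 14 of 56 with KDM5B and 21 of 61 untreated.

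Of the windows with the highest mean over the 7 stages, chr3:103000001-105000000, with Magi3, a scaffold protein of cell junctions, and Trim33, a cofactor of Smad signalling, was replicated in 51 of 66 zygotes, 41 of 61 2-cell, 45 of 55 4-cell, 39 of 56 8-cell, 36 of 40 16-cell, 40 of 47 morula and 55 of 70 ICM cells. The window chr3:95000001-97000000 holds 77 gene starts, among them Arnt and Gja5, a gap junction protein, and was replicated in 50 of 66 zygotes, 42 of 61 2-cell, 45 of 55 4-cell, 40 of 56 8-cell, 36 of 40 16-cell, 38 of 47 morula and 52 of 70 ICM cells. The window chr3:129000001-131000000, with Egf, the epidermal growth factor, was replicated in 42 of 47 morula cells. So was chr3:57000001-59000000, with Wwtr1, the Hippo pathway coactivator TAZ. In these 4 windows the 7 stages had them replicated in 65.5% of cells or more.

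Domains were drawn on the morula profile as runs of bins above or below the share of all chromosomes, so their morula values are a description. There were 17 early domains with 72.55 Mb and 17 late domains with 69.5 Mb. Before the running mean, the single bins nearest the dividing line had relative shares of 0.0160 above it and -0.00531 below it. By the same values, 222 of 2780 bins lay within 0.05 of it. Domains were cut on the running mean, so these values do not show how near the line a domain lay. Features that the rule did not use separated the classes: early domains held 10.8 gene starts per Mb, 42.7% GC and 30.8% repeats, and late domains held 2.59 gene starts per Mb, 38.4% GC and 38.96% repeats.

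The same domains were already apart in zygotes, though by less. Early and late domains had relative shares of 0.103 and -0.0842 in zygotes, 0.0931 and -0.0555 in 2-cell embryos, 0.0647 and -0.138 in 4-cell embryos, 0.0842 and -0.187 in 8-cell embryos, 0.175 and -0.230 in 16-cell embryos, 0.175 and -0.304 in morulae and 0.109 and -0.151 in the ICM. The gap between them was 0.187, 0.149, 0.203, 0.272, 0.405, 0.479 and 0.259 in these stages. From the 4-cell stage to the morula, the value of late domains was lower at each stage than at the one before. Of the 17 late domains, 10 lay below all chromosomes in zygotes, 11 in 2-cell embryos, 17 in 4-cell, 8-cell and 16-cell embryos, and 14 in the ICM. In single cells, early domains were ahead of late ones in 54 of 66 zygotes, 46 of 61 2-cell, 47 of 55 4-cell, 47 of 56 8-cell, 34 of 40 16-cell, 47 of 47 morula and 57 of 70 ICM cells.

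**Figure D4:**
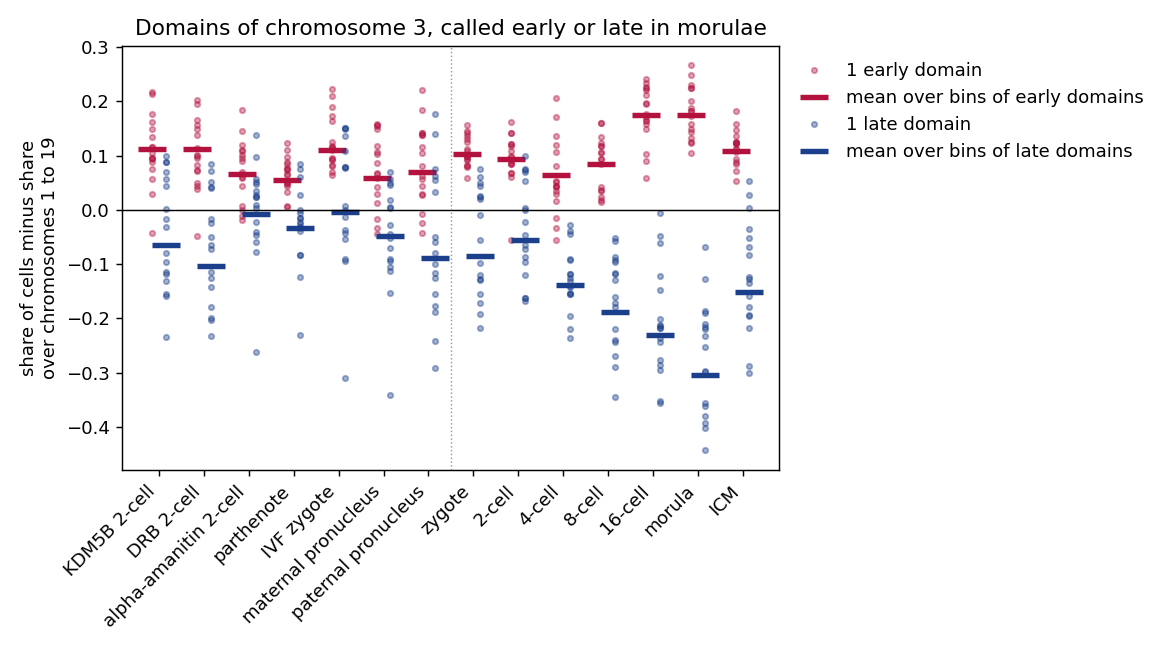
Relative share of the 17 early (red) and 17 late (blue) domains of chromosome 3, called on morulae, in each group; each point is 1 domain and each bar the mean over bins. The bars are farthest apart in morulae (0.175 and -0.304) and closest in alpha-amanitin 2-cell embryos (0.0663 and -0.00681).

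The longest late domain, chr3:41700001-50800000 (9.1 Mb), holds 6 gene starts, among them Slc7a11, the cystine and glutamate exchanger, and Pcdh10, a protocadherin of neural cell adhesion. Its relative share was -0.192 in zygotes, -0.120 at the 2-cell stage, -0.195 in 4-cell embryos, -0.290 in 8-cell embryos, -0.351 in 16-cell embryos, -0.443 in morulae and -0.287 in the ICM. It was replicated in 1 of 47 morula cells, against 17 of 61 2-cell cells. The next, chr3:70200001-78800000 (8.6 Mb), holds Fstl5, a follistatin-like protein, and Serpini1, neuroserpin, and had relative shares of -0.155, -0.0719, -0.141, -0.239, -0.277, -0.392 and -0.196 over the stages. Both were later in morulae than at every other stage.

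The late domain chr3:20450001-26800000 (6.35 Mb), with Nlgn1, a postsynaptic adhesion protein, and Naaladl2, lay below all chromosomes at every stage. Its relative shares were -0.0547, -0.163, -0.125, -0.118, -0.123, -0.219 and -0.123 over the stages, zygotes first. It was replicated in 37 of 66 zygotes (56.1%, 43.3 to 68.3), 15 of 61 2-cell (24.6%, 14.5 to 37.3), 12 of 55 4-cell, 17 of 56 8-cell, 16 of 40 16-cell, 14 of 47 morula and 27 of 70 ICM cells. The domain was replicated in 38 of 56 IVF zygotes, 36 of 57 parthenotes and 15 of 21 maternal pronuclei, against 7 of 17 paternal pronuclei.

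Other late domains of morulae were not late at the start. The domain chr3:117600001-120900000 around Dpyd had relative shares of 0.0745, 0.0987, -0.0384, -0.0919, -0.214, -0.211 and -0.0829 over the stages, zygotes first. The domain chr3:147100001-151700000, with Adgrl2, a latrophilin receptor, had 0.04997, 0.0527, -0.0928, -0.179, -0.235, -0.299 and -0.180. The domain chr3:80100001-83650000, with Gria2, a glutamate receptor subunit, and the 3 fibrinogen genes, had -0.00974, 0.0706, -0.156, -0.161, -0.201, -0.253 and -0.134. These 3 domains stood above the genome in 2-cell embryos and below it in every later stage.

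The longest early domain, chr3:93250001-109550000 (16.3 Mb), carried 275 of the 962 gene starts. Replication had reached it in 46 of 66 zygotes, 40 of 61 2-cell, 29 of 55 4-cell, 34 of 56 8-cell, 33 of 40 16-cell, 39 of 47 morula and 46 of 70 ICM cells. The domain chr3:83650001-90700000, with 146 gene starts and the ubiquitin ligase gene Fbxw7, had relative shares of 0.0832, 0.0862, 0.136, 0.118, 0.221, 0.248 and 0.0849 over the stages. The late domain just beyond it, chr3:90700001-93250000, with 55 gene starts of the cornified envelope cluster, had -0.217, -0.168, -0.220, -0.345, -0.355, -0.402 and -0.301. As a mean over its bins, this gene-rich late domain was below all chromosomes in each of the 14 groups. Its genes did not always follow that mean. Of 23 cornified envelope genes measured at chr3:92316620-93449077, which reach past its end, all lay above all chromosomes with DRB. The count was 16 with KDM5B, 10 with alpha-amanitin and 10 in untreated 2-cell embryos.

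Neighbouring stages were first compared window by window, counting windows of chromosome 3 whose relative share differed by 0.2 or more, beside the same share of all 1038 windows. Between 2-cell embryos and zygotes, 0 of 71 windows were earlier (0.482% of all windows) and 0 later (0.0963%). Between 4-cell and 2-cell embryos, 0 were earlier (8.0%) and 2 later (1.73%), and 55 of 71 windows were lower, as were 58.7% of all windows. Between 8-cell and 4-cell embryos, 0 were earlier (0.289%) and 1 later (1.93%). Between 16-cell and 8-cell embryos, 0 were earlier (0.0963%) and 0 later (0.193%), and between morulae and 16-cell embryos, 0 were earlier (0.385%) and 0 later (0.289%). The 16-cell cells of 77 h alone (9 cells) gave 22 earlier windows against 8-cell embryos, and 27 later windows in morulae against them. The share of all windows is not given for these 9 cells, so the 2 counts do not set chromosome 3 apart. Between the ICM and morulae, 5 were earlier (8.0%) and 1 later (7.61%).

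The largest difference to later in 4-cell embryos was at chr3:81000001-83000000, with Pdgfc, a platelet-derived growth factor, replicated in 12 of 55 4-cell cells (21.8%, 11.8 to 35.01) against 38 of 61 2-cell cells (62.3%, 48.96 to 74.4). At chr3:153000001-155000000 it was 15 of 55 4-cell cells (27.3%, 16.1 to 40.96) against 40 of 61 2-cell cells (65.6%, 52.3 to 77.3). Late windows of morulae led the differences in the ICM. At chr3:45000001-47000000, with Pcdh10, 25 of 70 ICM cells (35.7%, 24.6 to 48.1) had it replicated, against 4 of 47 morula cells (8.51%, 2.37 to 20.4). The 1 window that was later in the ICM by this measure, chr3:87000001-89000000, was replicated in 39 of 70 ICM cells (55.7%, 43.3 to 67.6) against 38 of 47 morula cells (80.9%, 66.7 to 90.9).

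Morulae and 2-cell embryos, the pair by which the chromosome was chosen, differed by 0.2 or more in 21 windows, 2 of them earlier (13.1% of all windows) and 19 later (19.9%). Without subtracting all chromosomes, 10 were earlier and 11 later, with no share of all windows given for that setting. The median difference was -0.0605 on chromosome 3 and 0.0235 over all windows. The farthest was the desert chr3:149000001-151000000, replicated in 5 of 47 morula cells (10.6%, 3.55 to 23.1) against 35 of 61 2-cell cells (57.4%, 44.1 to 69.96). The window chr3:73000001-75000000, with Bche, butyrylcholinesterase, and Slitrk3, a synaptic adhesion protein, was replicated in 4 of 47 morula cells against 27 of 61 2-cell cells. The 2 earlier windows, chr3:87000001-89000000 and chr3:105000001-107000000, were each replicated in 38 of 47 morula cells against 32 of 61 2-cell cells.

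Genes were then read by list, a gene taking the mean relative share of the bins it overlaps. The lists were drawn up with earlier results of these data known, their genes share bins and neighbours, and the counts are descriptions. Over all 930 protein-coding genes measured, the median relative share was 0.105 in 2-cell embryos and 0.216 in morulae. So genes as a whole lay in early bins, and 720 of 930 were higher and 210 lower in morulae than in 2-cell embryos while the chromosome's mean was lower.

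Most genes of the list called long neuronal and adhesion genes lay later in morulae than in 2-cell embryos. The list is mixed, as it also holds Dpyd, an enzyme, and genes that are not long, such as Pcdh18 (chr3:49743296-49757325). Of 26, over 194 bins, 9 were higher and 17 lower in morulae than in 2-cell embryos, with a median difference of -0.187 against 0.0979 over all genes. Their median relative share was 0.0249 in zygotes, 0.0242 at the 2-cell stage, -0.0626 in 4-cell embryos, -0.0271 in 8-cell embryos, -0.138 in 16-cell embryos, -0.182 in morulae and -0.0793 in the ICM. The largest difference was at Dpyd, chr3:118562129-119432924, the first enzyme of pyrimidine breakdown, a long gene of 18 bins. The gene was replicated in 41 of 66 zygotes, 46 of 61 2-cell, 22 of 55 4-cell, 17 of 56 8-cell, 11 of 40 16-cell, 8 of 47 morula and 25 of 70 ICM cells. The share was 17.0% of morula cells (7.65 to 30.8) against 75.4% of 2-cell cells (62.7 to 85.5).

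Not every gene of that list went later. Pcdh18, a protocadherin, was the latest in morulae, replicated in 4 of 47 morula cells against 25 of 61 2-cell cells, and Gria2 was replicated in 9 of 47 against 31 of 61. Rapgef2, an activator of the small GTPase Rap, was replicated in 39 of 47 morula cells against 32 of 61 2-cell cells. Kcnd3, a voltage-gated potassium channel, was replicated in 38 of 47 morula cells against 32 of 61 2-cell cells.

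Most housekeeping and growth genes lay above all chromosomes at each of the 7 stages, from 89.7% in the ICM to 100% in zygotes. So did most of all 930 genes, from 67.96% in 4-cell embryos to 82.3% in zygotes. Of 39 measured of 40 listed, 37 were higher and 2 lower in morulae than in 2-cell embryos, with a median difference of 0.123. Over all genes 720 of 930 were higher, with a median difference of 0.0979. Their median relative share was 0.123 in zygotes, 0.146 at the 2-cell stage, 0.283 in 4-cell embryos, 0.170 in 8-cell embryos, 0.248 in 16-cell embryos, 0.261 in morulae and 0.134 in the ICM, and the 4-cell stage was their peak. Psmb4, a proteasome subunit, was replicated in 42 of 66 zygotes, 35 of 61 2-cell, 43 of 55 4-cell, 36 of 56 8-cell, 32 of 40 16-cell, 43 of 47 morula and 47 of 70 ICM cells. Nras, the small GTPase of growth signalling, was replicated in 39 of 47 morula cells against 37 of 61 2-cell cells, and Ccna2, cyclin A2 of S phase, in 36 of 47 against 35 of 61. One of the 2 lower genes was Prmt6, an arginine methyltransferase inside a late domain, with 16 of 47 morula cells against 28 of 61 2-cell cells.

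Of 24 embryo and lineage regulators, 16 were higher and 8 lower in morulae than in 2-cell embryos, against 720 of 930 higher over all genes. In zygotes 23 lay above all chromosomes, as did 82.3% of all genes, at the 2-cell stage 21 (80.4% of all genes), in 4-cell embryos 18 (67.96%) and in morulae 22 (81.9%). The lowest count was 17, in maternal pronuclei, where 61.5% of all genes lay above. Sox2, chr3:34650405-34652461, a transcription factor of pluripotent cells, was replicated in 46 of 66 zygotes, 39 of 61 2-cell, 26 of 55 4-cell, 37 of 56 8-cell, 26 of 40 16-cell, 31 of 47 morula and 47 of 70 ICM cells. Etv3, a repressor of the ETS family, was replicated in 40 of 47 morula cells (85.1%, 71.7 to 93.8) against 25 of 61 2-cell cells (40.98%, 28.6 to 54.3). Dkk2, a modulator of Wnt signalling, was replicated in 17 of 47 morula cells against 36 of 61 2-cell cells, the largest difference to later of this list.

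**Figure D5:**
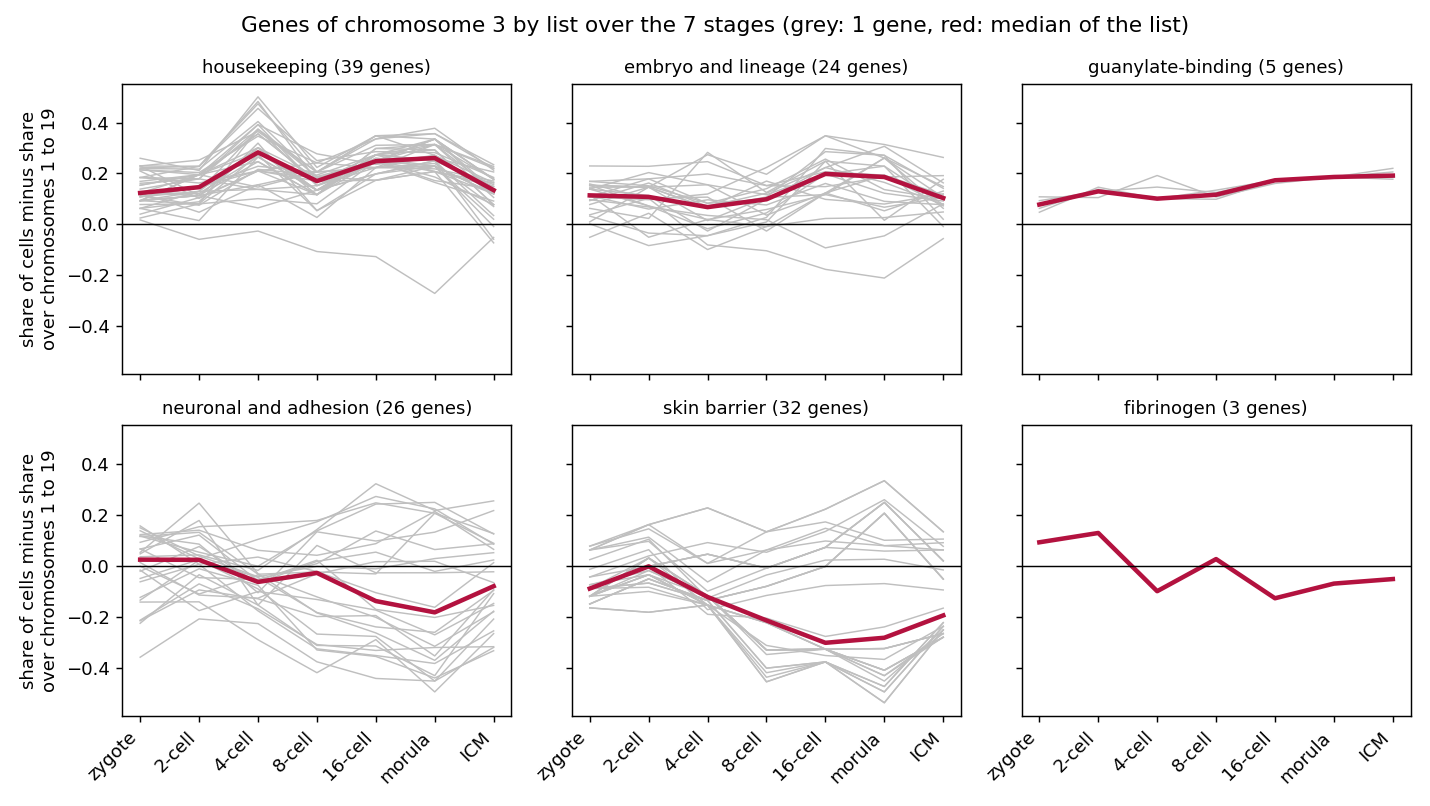
Relative share of genes of 6 lists on chromosome 3 (y axis) over the 7 stages (x axis); each grey line is 1 gene and the red line the median of the list. Housekeeping genes stayed above 0 at every stage but for Prmt6 after the zygote and Hdgf, Pmf1 and Lmna in the ICM, and the skin barrier median was lowest in 16-cell embryos, at -0.302.

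The skin barrier genes of the epidermal differentiation complex split in place. Over all genes, 720 of 930 were higher in morulae than in 2-cell embryos. Of 32 skin barrier genes measured of 34 listed, which share 22 bins, 9 were higher and 23 lower. The 9 were the S100 genes, calcium-binding proteins at chr3:90511034-90695721, whose median relative share was 0.25 in morulae against -0.00143 in 2-cell embryos. The 23 others, at chr3:92316620-93449077, had -0.410 in morulae against -0.0178 in 2-cell embryos. Sprr2b, a small proline-rich protein, was replicated in 25 of 66 zygotes, 19 of 61 2-cell, 14 of 55 4-cell, 2 of 56 8-cell, 7 of 40 16-cell, 2 of 47 morula and 21 of 70 ICM cells. S100a1 was replicated in 43 of 47 morula cells against 40 of 61 2-cell cells. In morulae all 9 S100 genes and 5 of the 23 others lay above all chromosomes, where 81.9% of all genes did.

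The 6 alcohol dehydrogenase genes and the 7 glutathione transferase genes of the Gstm cluster lay above all chromosomes in all 14 groups. The 6 hydroxysteroid dehydrogenase genes, the 7 Clca genes and Amy1 lay below in all 14 groups. Over all genes, the share above ran from 61.5% in maternal pronuclei to 82.5% with DRB. Members of a cluster are neighbours, and these 27 genes lie over 26 bins, so a full count is not that many separate observations. Amy1 was replicated in 6 of 47 morula cells against 17 of 61 2-cell cells, and its 6 Amy2 neighbours had no value. The 5 guanylate-binding protein genes, which share 4 bins and act in defence against intracellular pathogens, were above in all 14 groups. Their medians were 0.0780 in zygotes and 0.186 in morulae. The 10 replication-dependent histone genes, which share 2 bins, were below all chromosomes in IVF zygotes alone, with a median of -0.0217 against 0.199 in zygotes. The 3 fibrinogen genes, which share 1 bin, were replicated in 24 of 47 morula cells against 38 of 61 2-cell cells, and lay below all chromosomes in 4-cell embryos, 16-cell embryos, morulae, the ICM and paternal pronuclei and above them in the other 9 groups.

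IVF zygotes and parthenotes were compared with zygotes from mated females, both against the same zygotes. In IVF zygotes, 0 of 71 windows were earlier by 0.2 or more (1.73% of all windows) and 0 later (3.56%), while 52 windows were higher and 19 lower, where 48.4% of all windows were lower. The late domains had a relative share of -0.00362 in IVF zygotes against -0.0842 in zygotes, and the early domains had 0.109 in IVF zygotes against 0.103 in zygotes. The largest difference was at chr3:45000001-47000000, with Pcdh10, replicated in 35 of 56 IVF zygotes (62.5%, 48.5 to 75.1) against 20 of 66 zygotes (30.3%, 19.6 to 42.9). At chr3:75000001-77000000, with Fstl5, it was 37 of 56 IVF zygotes against 21 of 66 zygotes. The cornified envelope window chr3:91000001-93000000 went the other way, with 11 of 56 IVF zygotes against 21 of 66 zygotes. The times of the groups count from different events, and the collection time, the fertilization in a dish and the stage of S phase cannot be told apart here.

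Parthenotes carry maternal chromosomes alone. Their gap between early and late domains was 0.0878, against 0.187 in zygotes. Against zygotes, 0 windows were earlier (3.18%) and 0 later (0.867%), and against IVF zygotes 0 were earlier (0.771%) and 0 later (0.193%). Yet 58 of 71 windows were lower in parthenotes than in IVF zygotes, with a median difference of -0.0398 against -0.00927 over all windows. The largest was at chr3:51000001-53000000, with Foxo1, a transcription factor of insulin signalling, replicated in 37 of 57 parthenotes (64.9%, 51.1 to 77.1) against 49 of 56 IVF zygotes (87.5%, 75.9 to 94.8). Of the 32 skin barrier genes, 32 lay below all chromosomes in parthenotes, against 25 in IVF zygotes. Over all 930 genes, 279 lay below in parthenotes and 272 in IVF zygotes.

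Maternal and paternal pronuclei, with 21 and 17 members, gave the least precise values. In maternal pronuclei 3 of 71 windows were earlier by 0.2 or more (3.18% of all windows) and 2 later (2.5%) than in paternal ones. The largest differences were at chr3:75000001-77000000, with 15 of 21 maternal (71.4%, 47.8 to 88.7) against 8 of 17 paternal pronuclei (47.1%, 22.98 to 72.2), and at chr3:131000001-133000000, with Lef1, a transcription factor of Wnt signalling, with 10 of 21 maternal against 12 of 17 paternal. In 10 pairs of maternal and paternal pronuclei that carry the same number in their titles, the deviation of chromosome 3 was higher in the maternal member in 7 and lower in 3, with a median difference of 0.0647; the labels do not say whether a number marks 1 zygote.

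The 3 treated 2-cell groups were each set against the same untreated 2-cell embryos. With alpha-amanitin, 0 of 71 windows were earlier (0.963% of all windows) and 0 later (0.578%). With DRB, 0 were earlier (0.0963%) and 1 later (0.385%), and with KDM5B, 0 were earlier (0.193%) and 0 later (0.0%). The gap between early and late domains was 0.177 with KDM5B, 0.216 with DRB and 0.0732 with alpha-amanitin, against 0.149 in untreated 2-cell embryos. Early domains were ahead of late ones in 48 of 56 KDM5B (85.7%, 73.8 to 93.6), 61 of 67 DRB (91.04%, 81.5 to 96.6) and 28 of 42 alpha-amanitin cells (66.7%, 50.5 to 80.4), against 46 of 61 untreated cells (75.4%, 62.7 to 85.5).

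The window farthest in each direction was another with each treatment, but the 3 farthest overlapped. Among these, chr3:111000001-113000000 was later with both DRB and KDM5B, and chr3:121000001-123000000 was earlier with both. The window chr3:19000001-21000000 was earlier with both alpha-amanitin and KDM5B. With alpha-amanitin, the gene-rich window chr3:89000001-91000000 was replicated in 18 of 42 cells (42.9%, 27.7 to 59.04) against 38 of 61 untreated cells (62.3%, 48.96 to 74.4). The late window chr3:23000001-25000000, within Naaladl2, was replicated in 21 of 42 alpha-amanitin cells against 17 of 61 untreated cells. With DRB, the desert chr3:111000001-113000000 was replicated in 12 of 67 cells (17.9%, 9.61 to 29.2) against 23 of 61 untreated cells (37.7%, 25.6 to 51.04). All 32 skin barrier genes, which share 22 bins, lay above all chromosomes with DRB, with a median relative share of 0.0947. The count was 13 of 32 in untreated 2-cell embryos, 22 of 32 with KDM5B and 12 of 32 with alpha-amanitin. Over all genes, 82.5% lay above with DRB, 80.4% in untreated embryos, 78.4% with KDM5B and 72.4% with alpha-amanitin. Housekeeping genes with alpha-amanitin were lower in 31 of 39 cases and higher in 8 than in untreated 2-cell embryos, where over all genes 626 of 930 were lower. With KDM5B the largest difference was to later at chr3:145000001-147000000, with Prkacb, a catalytic subunit of protein kinase A, replicated in 29 of 56 KDM5B cells against 37 of 61 untreated cells.

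Along the chromosome, windows with more GC were replicated in more cells. Over the 71 windows, Spearman's rho of the share with GC content was 0.79 in zygotes, 0.71 at the 2-cell stage, 0.78 in 4-cell embryos, 0.88 in 8-cell embryos, 0.88 in 16-cell embryos, 0.91 in morulae and 0.80 in the ICM. Over all 1038 windows the values were 0.48, 0.35, 0.70, 0.72, 0.75, 0.81 and 0.46. In KDM5B, DRB and alpha-amanitin 2-cell embryos rho was 0.66, 0.77 and 0.34, and in parthenotes and IVF zygotes 0.52 and 0.47, where all windows gave 0.28, 0.44, -0.10, -0.02 and -0.02. With repeat content rho was -0.77 in zygotes, -0.72 at the 2-cell stage, -0.61 in morulae and -0.57 in the ICM. It was -0.57 with alpha-amanitin, -0.69 in parthenotes and -0.76 in IVF zygotes, where all windows gave -0.24, -0.30 and -0.39. With gene starts per window rho was 0.77 in morulae and 0.52 in 2-cell embryos. With distance from the start of the chromosome it lay between -0.03 and 0.35 in the 14 groups. These are correlations across neighbouring windows, which share cells and borders and are not independent.

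The window profiles most alike were those of the later stages. Over the 71 windows, Pearson's r was 0.970 between morulae and 16-cell embryos, 0.953 between morulae and 8-cell embryos, 0.931 between the ICM and morulae and 0.737 between morulae and 2-cell embryos. KDM5B 2-cell embryos correlated with untreated 2-cell embryos at 0.903, DRB embryos at 0.877 and alpha-amanitin embryos at 0.724. Parthenotes correlated with IVF zygotes at 0.879 and with zygotes at 0.804.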

How the data were processed

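Single-cell Repli-seq reads were aligned by the authors to the mouse genome; the submitters' processing notes name Bowtie2 2.3.5, SAMtools 1.9 and bedtools 2.29.0. The authors deposited 14 tables, 1 a group, of a binary replication state, 0 or 1, for each cell and 50 kb bin. It is neither a count nor a ratio, and the authors' scaling of bins by the mean of a stage leaves no trace of a copy number that all cells of a stage share. Of 1016 labelled samples, 283 had no column and were not analysed here. Depth is unknown, so intervals are exact (Clopper-Pearson) and cover the counting of cells only.

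Cells with a replication score of 10 to 90 were kept. The share of a bin is the number of cells at 1 over those called, with at least 5 called, and the relative share subtracts that over chromosomes 1 to 19. Windows of 2 Mb were compared at a difference of 0.2. Domains were runs on a mean of 11 bins in morulae, with runs under 1 Mb joined to their neighbours. Gene coordinates are from the GENCODE annotation of GRCm38 and sequence from the RefSeq copy of that genome. The labels tie no cell to an animal, so each group was 1 sample and no test was run. Named windows were the 4 highest and 4 lowest in the mean over the stages and the 3 farthest in each direction of a comparison; named domains were the 5 longest of each class. Named genes were those highest, lowest or farthest apart between morulae and 2-cell embryos in a list, with a few added by name. Other domains, genes and clusters were chosen after their values were seen. The chromosome, its domains and the gene lists were chosen with earlier results of these data known. Alternatives changed the cells, windows, threshold, reference chromosomes and domains, or left out 1 collection time. Values were computed with Python 3.11.15, numpy 2.4.6, pandas 2.3.3 and scipy 1.17.1 and drawn with matplotlib 3.10.9; the calculation was tested on simulated data.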

Additional observations from a re-analysis of the deposited data

How the results depend on the processing

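Of 1032 values recomputed for 84 results under other settings, 889 stayed within the limits set for them, 129 moved and 14 turned sign; the causes were not tested. No paired analysis was possible because each group counted as 1 sample and the labels do not say that a shared number marks 1 zygote, so the 10 pairs of pronuclei with the same number were only described. The setting without single-state cells was chosen after seeing the data. The main values also used cells that did not pass the authors' quality control. The setting with quality-passed cells kept cells that the authors' quality list does not name. It held 53 of 66 zygotes and 662 of 714 cells in all. The ICM, KDM5B, DRB and alpha-amanitin groups lost no cell, so in their comparisons only the other group could change. Depth behind a call is unknown, and 1 sample a group and few cells in the pronuclei limit all counts.

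The relative share of the whole chromosome turned sign in these cases. In zygotes it was -0.00660 with quality-passed cells and -0.00197 without single-state cells. In maternal pronuclei it was -0.0213 with scores of 30 to 70 and -0.00373 with the chromosome's ends included. With scores of 30 to 70 it was 0.0123 in 16-cell embryos and 0.00431 in paternal pronuclei. In DRB 2-cell embryos it was -0.0192 with the ends included, -0.00721 against the other 18 autosomes with their ends left out and -0.000151 with cells averaged over score intervals. Late domains turned to 0.00657 in IVF zygotes and 0.00273 in alpha-amanitin 2-cell embryos with domains of at least 2 Mb, and to 0.00268 in alpha-amanitin 2-cell embryos without single-state cells.

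Counts of windows were the least stable. The share of all windows under these settings, or with 1 collection time left out, is not given. The counts below thus describe chromosome 3 alone and do not set it apart from other chromosomes. With quality-passed cells, the earlier windows were 1 for 2-cell embryos against zygotes, 4 for IVF zygotes, 3 for parthenotes against zygotes and 6 for maternal pronuclei, and the later windows 5 for 4-cell embryos, 2 for the ICM, 1 for maternal pronuclei and 1 for alpha-amanitin. Without single-state cells, earlier windows were 3 for IVF zygotes, 2 for parthenotes and 6 for maternal pronuclei, and later ones 5 for 4-cell embryos and 1 for maternal pronuclei. With scores of 30 to 70, earlier windows were 3 for 16-cell embryos against 8-cell embryos and 5 for morulae against 2-cell embryos. Later ones were then 2 for 2-cell embryos, 5 for 4-cell embryos, 0 for 8-cell embryos, 3 for morulae against 16-cell embryos, 4 for the ICM, 9 for maternal pronuclei, 1 for alpha-amanitin and 2 for DRB. Over score intervals, later windows were 1 for 4-cell embryos, 4 for 8-cell embryos and 2 for the ICM, with 1 earlier for the ICM.

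With a difference of 0.15, earlier windows were 1 for 2-cell, 3 for 4-cell and 2 for 16-cell embryos, 13 for the ICM, 5 for morulae against 2-cell embryos, 3 for IVF zygotes, 3 for parthenotes against zygotes, 9 for maternal pronuclei and 3 for alpha-amanitin. Later ones were 2 for 2-cell, 7 for 4-cell and 6 for 8-cell embryos, 2 for morulae against 16-cell embryos, 3 for the ICM, 1 for parthenotes against zygotes, 3 for parthenotes against IVF zygotes, 1 for alpha-amanitin and 4 for DRB. With a difference of 0.25, later windows were 0 for 4-cell and 8-cell embryos, the ICM, maternal pronuclei and DRB, and earlier ones 1 for the ICM, 0 for morulae against 2-cell embryos and 1 for maternal pronuclei.

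Without subtracting all chromosomes, earlier windows were 3 for 8-cell and 4 for 16-cell embryos, 2 for the ICM, 10 for morulae against 2-cell embryos, 7 for IVF zygotes, 5 for maternal pronuclei and 2 for DRB. Later ones were 2 for 2-cell, 14 for 4-cell and 0 for 8-cell embryos, 3 for the ICM, 11 for morulae against 2-cell embryos, 4 for parthenotes against IVF zygotes, 1 for maternal pronuclei and 0 for DRB. With windows of 1 Mb, earlier ones were 3 for 4-cell and 1 for 8-cell embryos, 18 for the ICM, 5 for morulae against 2-cell embryos, 2 for IVF zygotes, 2 for parthenotes against zygotes, 10 for maternal pronuclei and 1 for alpha-amanitin. Later ones were 8 for 4-cell, 6 for 8-cell and 1 for 16-cell embryos, 2 for morulae against 16-cell embryos, 4 for the ICM, 45 for morulae against 2-cell embryos, 2 for parthenotes against IVF zygotes, 5 for maternal pronuclei, 2 for alpha-amanitin and 3 for DRB. Without 8-cell cells of 72 h and 16-cell cells of 77 h, 3 windows were later in 8-cell embryos.

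Leaving out the cells of 1 collection time in turn, the relative share of 16-cell embryos lay between -0.0537 without 77 h and 0.0859 without 80 h. That of untreated 2-cell embryos lay between 0.0108 and 0.0512, the highest without 35 h. With DRB it lay between -0.00849 without 38 h and 0.0229, with KDM5B between 0.0184 and 0.0334 and with alpha-amanitin between 0.0227 and 0.0416. Against 8-cell embryos, 16-cell embryos had 0 to 22 earlier and 0 to 4 later windows, and morulae against 16-cell embryos 0 to 2 earlier and 0 to 27 later, with the highest counts without 80 h but for the 4, which was without 77 h. The ICM had 5 to 10 earlier and 1 to 4 later windows, the highest without 96 h. Later windows were 2 to 7 for 4-cell embryos, the highest without 2-cell cells of 35 h, 0 to 3 for 8-cell embryos, the highest without 72 h, and 1 to 4 for DRB, the highest without 38 h. Morulae against 2-cell embryos had 1 to 3 earlier windows, 2-cell embryos against zygotes 0 to 1, IVF zygotes 0 to 3 and parthenotes against zygotes 0 to 1. Later windows were 0 to 1 for parthenotes against IVF zygotes, and alpha-amanitin had 0 to 1 earlier and 0 to 1 later.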
